A study of Mus musculus with 12 samples.

Results

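The swimming by genotype interaction was examined in the mouse hypothalamus, that is, the change from rest to swimming in Asmt-knockout mice minus the same change in wild-type mice. It was computed as (KO-E minus KO) minus (WT-E minus WT) on log2 normalized signals, and all 12 of the 12 arrays of the series entered it. WT were wild-type littermates at rest, KO were homozygous ASMT knockouts at rest, and WT-E and KO-E were wild-type and knockout mice exercised through a program of daily swimming exercise, with 3 arrays in each group. All mice were males on a C57BL/6 background and 6 to 7 weeks old when training began, and the knockouts descended from founders with a 20 bp deletion made with Cas9, backcrossed for 3 generations. A positive interaction is a higher change in knockout, a negative one a lower change in knockout, and an interaction of 1 is a 2-fold difference between both responses. The question was which genes and pathways answered swimming differently when Asmt was lost.

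Asmt encodes the last enzyme of melatonin synthesis, which is active mainly in the pineal gland, and C57BL/6 mice are known for very low Asmt activity. The hypothalamus receives melatonin signals and controls the stress axis, feeding, temperature and daily rhythms. Swimming is both exercise and a stressor. Stressors release glucocorticoids, whose receptor binds DNA and switches on genes such as Sgk1 and Zbtb16, and they activate the heat shock factors, which switch on chaperone genes, and the immediate-early genes of active neurons.

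Asmt itself could not serve as a check of genotype. Its only probe gave normalized signals of 1.83 to 2.49 and was not well above background on any of the 12 arrays. Between 61.6% and 67.9% of the 59305 spots per array were well above background and 0 were saturated. Testing was limited to probes that were well above background on all arrays of 1 or more groups, which left 35230 of 56605 probes for 18266 gene symbols. The arrays lay on 2 slides: slide 1 held WT replicates 1 to 3 and KO replicates 1 and 2, and slide 2 held KO replicate 3 and all WT-E and KO-E arrays. The leading principal component took 47.3% of the variance and separated the slides, with the exercised arrays at 19.3 to 34.6, KO replicate 3 above them, and the slide 1 arrays at -47.5 to -29.5. The interaction was therefore fitted without a block and with the slide as a block. With the block it equals the genotype difference after swimming, taken within slide 2, minus the genotype difference at rest of KO replicates 1 and 2, taken within slide 1, so that KO replicate 3 drops out of the estimate. WT-E minus WT lies wholly across slides, and swimming and slide cannot be told apart in wild-type mice.

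No interaction passed adjustment over the 35230 probes tested. In limma 0 of them had an adjusted p under 0.05, with or without the block, and the smallest adjusted p was 0.361 without it and 0.178 with it. When limma was run on all 56605 probes, with no detection filter and no block, 4 passed at an adjusted p under 0.05. At an unadjusted p under 0.05 there were 2729 probes (7.75%) without the block and 3803 (10.8%) with it. The methods screened for a fold of 2 or more and an unadjusted p no higher than 0.05, here an interaction of 1 or more in size. This criterion was met by 209 probes (0.593%) without the block, 85 higher and 124 lower, and by 263 probes (0.747%) with it, 115 higher and 148 lower. The split between directions depended on the scaling, since with each array scaled to its 75th percentile 143 were higher and 77 lower, and the number on the background correction, since with normexp and quantile normalization 12 probes met the criterion, 2 higher and 10 lower. A set of 148 probes (0.42%) met it in both fits. Of these, 64 (0.182%) had a higher change in knockout and 84 (0.238%) a lower one. They are described below as probes at the criterion, which is a ranking and not a test passed after adjustment.

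The genotype difference had opposite signs at rest and after swimming in 140 of the 148 probes, against 20513 of all 35230 tested, and a choice by the size of the interaction favours opposite signs. A lower change in knockout mostly meant a signal above wild-type at rest and below wild-type after swimming. Of the 84 lower probes, 45 had KO replicates 1 and 2 above all 3 WT arrays, against 9.78% of all tested probes. All 3 WT-E arrays lay above all 3 KO-E arrays in 61 of them, against 11.2%. Both held in 28, against 2.23%. Of the 64 higher probes, 41 had all KO-E arrays above all WT-E arrays (8.28% of all tested probes) and 39 had all WT arrays above KO replicates 1 and 2 (8.97%), and both held in 20 (1.24%). These counts use the arrays that chose the probes and are a description only. KO replicate 3 gives the one comparison of rest with swimming inside a slide. It lay above all KO-E arrays in 64 of the 84 lower probes (34.6% of all tested probes) and below them in 48 of the 64 higher probes (26.5%), and the median of KO-E minus KO replicate 3 was -0.63 in the lower set, 0.74 in the higher set and -0.02 over all tested probes. That single array also enters the fit without the block, and the KO-E arrays enter both fits. This comparison thus also uses arrays that chose the probes and is a description only.

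**Figure D1:**
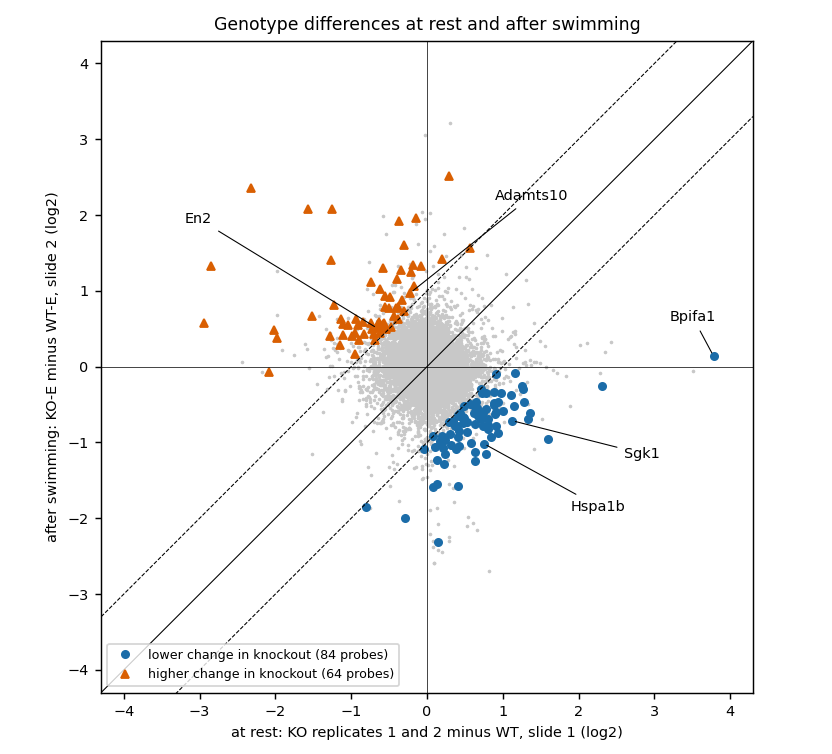
Genotype difference at rest (KO replicates 1 and 2 minus WT, x axis) against that after swimming (KO-E minus WT-E, y axis), both log2, for 35230 tested probes in grey; their vertical distance from the solid line is the slide-blocked interaction, and the dashed lines mark interactions of 1 and -1. The 84 lower probes lie mostly to the lower right, knockout above wild-type at rest and below it after swimming, and the 64 higher probes mostly to the upper left.

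Many of the 148 probes were dim. In 70 of them at least 1 group had no array well above background, and 34 probes, for 32 genes, were well above background on all 12 arrays. The genes named next come from those 34 probes, up to 12 in each direction. KO replicate 3 lay above all KO-E arrays in 7 of the 12 lower probes, but not for Bpifa1, Zbtb16, Sgk1, Arl4d and 1810011O10Rik. It lay below all KO-E arrays in 7 of the 12 higher probes.

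Heat shock chaperones were led by Hspa1b, which encodes an inducible HSP70 that refolds damaged proteins. Its probe (chr17:35093374-35093405, minus strand, mm9) gave normalized signals of 9.12, 9.18 and 9.16 in WT, 9.82, 9.99 and 9.33 in KO, 10.35, 9.36 and 9.41 in WT-E, and 9.26, 8.51 and 8.30 in KO-E. All KO arrays lay above all WT arrays, and all KO-E arrays lay below all WT-E arrays. The interaction was -1.57 (SE 0.43) without the block and -1.76 (SE 0.44) with it, with limma adjusted p of 0.52 and 0.31. Hspa1b was 1 of 2 probes, with that of Bpifa1, that kept the criterion in all 35 alternatives, with an interaction of -2.05 to -1.25. Among these is the slide-block fit, which had itself chosen the probes. Hspa1a, a near-identical copy whose RNA the probes may not separate, had interactions of -0.60 and -0.72.

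Of 22 chaperone and heat shock genes tested, 9 had a lower change in knockout at an unadjusted p under 0.05 with the block and 0 a higher one. Over all 18266 genes, each by its brightest probe, the shares were 6.73% lower and 3.99% higher (10.7% in either direction). The list median was -0.15, against -0.02 over all genes. KO replicate 3 lay above all KO-E arrays for 12 of the 22 genes (35.3% of all genes). Dnajb1, a co-chaperone of HSP70, gave 15.10, 14.70 and 14.64 in WT, 15.22, 15.22 and 14.69 in KO, 15.04, 14.63 and 14.58 in WT-E and 14.44, 14.25 and 14.25 in KO-E. KO-E was the lowest group, with every array below the other 9, and the interaction was -0.66 (SE 0.26) without the block and -0.84 (SE 0.22) with it. Hspb1, the small heat shock protein HSP27, had -0.77 (SE 0.25) and -0.89 (SE 0.25), with its highest arrays KO replicate 2 at 13.04 and WT-E replicate 1 at 12.99. Dnajb4, another HSP40 co-chaperone, had the smallest p of the list at a size of -0.24 (SE 0.09) and -0.31 (SE 0.07). Without KO replicate 2 the blocked count was 6 of 22, while the count over all genes was 721 lower in place of 1229. Without the block 7 of 22 were lower, against 6.93% of all genes in either direction. That count was 2 without KO replicate 2, 3 without KO-E replicate 3 and 4 without WT-E replicate 1.

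The promoter of Hspa1b is shown because heat shock factors bind inverted repeats of GAA units, and the list was searched for the pair GAANNTTC or TTCNNGAA, both strands, in the 250 bases before the start of each gene in RefSeq. The pair was in 8 of the 18 list members with a promoter in the table (44.4%), against 14.5% of all 27025 genes there. The list was made of heat shock genes, and all members were searched whatever their interaction. These shares describe the letters only. The Hspa1b window is chr17:34959239-34959488 on the minus strand of GRCm38.p6, given 5′ to 3′ with the match, at -104 to -97 from the start, in capitals.
Hspa1b: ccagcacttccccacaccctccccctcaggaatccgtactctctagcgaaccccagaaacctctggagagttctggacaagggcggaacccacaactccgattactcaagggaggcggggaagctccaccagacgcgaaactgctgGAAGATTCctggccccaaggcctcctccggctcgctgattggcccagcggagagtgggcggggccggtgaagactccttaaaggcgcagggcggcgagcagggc

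Glucocorticoid-induced genes had the largest median shift of the gene groups. Of 18 tested, 9 had a lower change in knockout at an unadjusted p under 0.05 with the block and 0 a higher one (6.73% and 3.99% of all genes), and the median was -0.64. The group joins metabolic, signalling and cell-cycle genes that glucocorticoids induce. Sgk1, a kinase that controls ion channels and transporters (probe at chr10:21719390-21719449, plus strand, mm9), gave 12.65, 12.55 and 12.13 in WT, 13.19, 13.95 and 12.54 in KO, 13.41, 13.47 and 12.39 in WT-E, and 11.88, 12.66 and 12.58 in KO-E. KO replicates 1 and 2 exceeded every WT array, and WT-E replicates 1 and 2 exceeded every KO-E array, whereas WT-E replicate 3 did not. The interaction was -1.49 (SE 0.55) and -1.83 (SE 0.51), with limma adjusted p of 0.58 and 0.32. With the block it kept the criterion whichever array was left out, and without the block in 7 of 12 cases.

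Zbtb16, a zinc finger transcription factor, gave 5.50, 5.44 and 5.54 in WT, 5.51, 7.15 and 5.81 in KO, 6.52, 6.35 and 6.14 in WT-E, and 5.94, 5.13 and 5.16 in KO-E. All WT-E arrays were above all WT and all KO-E arrays, and the mean of KO rested on replicate 2. The interaction was -1.59 (SE 0.53) and -1.76 (SE 0.56), and -0.94 with the block when KO replicate 2 was left out, which no longer met the criterion. A second Zbtb16 probe also met the criterion, at -1.69 with the block.

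Cdkn1a, the cell-cycle inhibitor p21, is induced by glucocorticoids and by p53. Its probe (chr17:29237377-29237436, plus strand, mm9) gave 9.08, 9.18 and 8.97 in WT, 9.39, 10.24 and 9.23 in KO, 9.34, 9.38 and 8.83 in WT-E, and 8.76, 8.68 and 8.27 in KO-E. All KO arrays lay above all WT arrays, and all KO-E arrays lay below the other 9. The interaction was -1.15 (SE 0.36) and -1.35 (SE 0.35), with limma adjusted p of 0.55 and 0.32, and without KO replicate 2 it was -0.84 and -0.92, below the size required.

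Smaller interactions of the same sign were found for Pdk4, which slows glucose oxidation (-0.59 without and -0.76 with the block), Klf9, a transcription factor (-0.49 and -0.59), and Errfi1, a feedback inhibitor of EGF receptor signalling (-0.36 and -0.43). In the stress axis list 3 of 18 genes were lower and 0 higher with the block (6.73% and 3.99% of all genes). These were Sgk1, Tsc22d3, the glucocorticoid-induced leucine zipper, at -0.52 and -0.57, and Avpr1a, a vasopressin receptor, at -0.34 and -0.32. Fkbp5, a co-chaperone that dampens the glucocorticoid receptor, had -0.50 (SE 0.24) and -0.57 (SE 0.26) with unadjusted limma p of 0.069 and 0.055, and a dimmer Fkbp5 probe had -0.68 (SE 0.41) and -1.02 (SE 0.31). The list median was -0.01.

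One array weighed on the glucocorticoid group. The mean of its 18 genes, each centred on its own average over the 12 arrays, was 0.82 in KO replicate 2, and between -0.24 and 0.25 in the other 11 arrays. KO-E was low and even, at -0.17, -0.19 and -0.14, as was WT at -0.24, -0.11 and -0.15. Without KO replicate 2 the count was 7 of 18 and the median -0.35, and without KO replicate 1 the count was 15 of 18. Without the block the count was 7, against 4.12% of all genes, and the median -0.51, or -0.29 without KO replicate 2. What set KO replicate 2 apart was not tested. KO replicate 3, on the slide of KO-E, lay above all KO-E arrays for 7 of the 18 genes, near the share of all genes (35.3%).

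The Sgk1 promoter is shown because it was 1 of 3 among the 16 list members in the table (18.8%) that held the palindromic glucocorticoid response element GNACANNNTGTNC in the 250 bases before the start, on either strand, against 0.44% of all genes. The others were Map3k6 and Mt1. The list was made of genes that glucocorticoids induce, and all members were searched whatever their interaction. These shares describe the letters only. The window is chr10:21993640-21993889, plus strand, GRCm38.p6, before 1 of the 6 Sgk1 starts in RefSeq, with the match at -188 to -176 in capitals.
Sgk1: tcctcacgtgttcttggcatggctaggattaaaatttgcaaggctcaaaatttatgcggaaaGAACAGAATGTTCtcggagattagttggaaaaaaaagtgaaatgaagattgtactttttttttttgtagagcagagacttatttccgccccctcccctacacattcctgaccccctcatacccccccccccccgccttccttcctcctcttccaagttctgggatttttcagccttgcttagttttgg

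**Figure D2:**
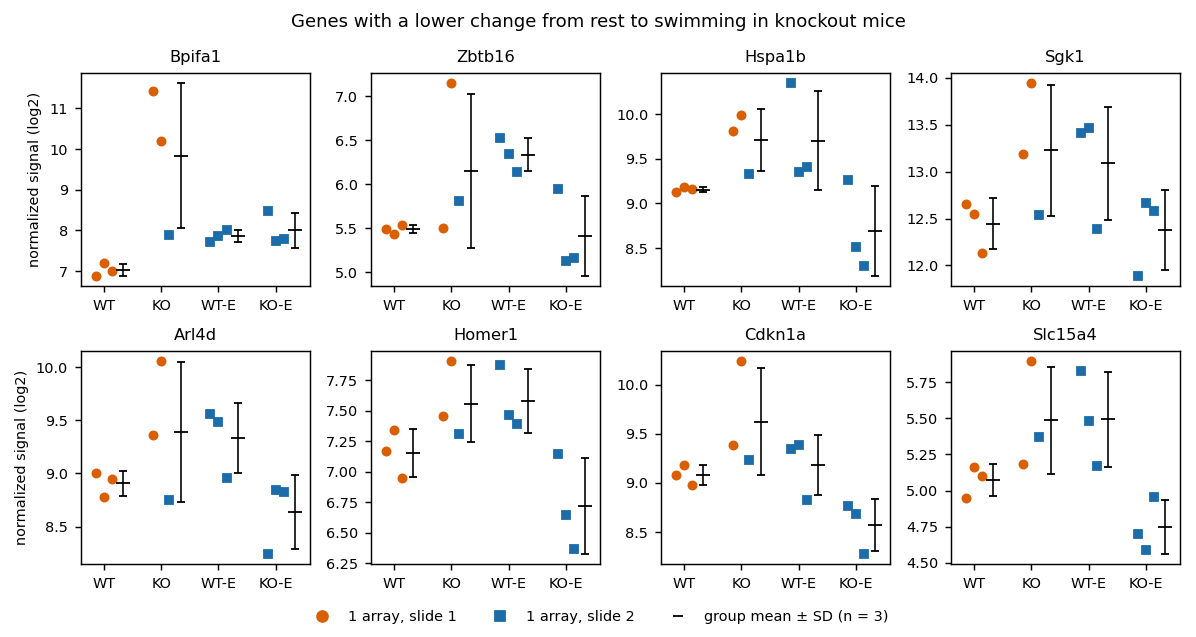
Normalized signal (log2) on each array for 8 of the 12 named genes with a lower change in knockout, in order of group, with slide 1 as circles, slide 2 as squares and the group mean ± SD (n = 3) as bars. KO-E lay below WT-E on every array for Zbtb16, Hspa1b, Arl4d, Homer1, Cdkn1a and Slc15a4, while Bpifa1 stood out only in KO replicates 1 and 2, on slide 1.

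Immediate-early genes are transcribed within minutes of neuronal activity and mark recently active cells. Of 22 tested, 7 had a lower change in knockout with the block and 0 a higher one (6.73% and 3.99% of all genes), and the median was -0.32. Egr1, a zinc finger factor linked to plasticity, gave 11.56, 10.65 and 10.60 in WT, 11.61, 11.24 and 10.94 in KO, 11.68, 11.11 and 10.75 in WT-E, and 10.53, 10.43 and 10.54 in KO-E. WT and WT-E were wide, whereas KO-E was narrow and below every other array. The interaction was -1.01 (SE 0.41) and -1.17 (SE 0.43). Egr4, of the same family, had -0.64 (SE 0.20) and -0.71 (SE 0.21), Klf4, a stress-responsive transcription factor, had -0.43 and -0.55, and Dusp1, a phosphatase that switches off MAP kinases, had -0.26 and -0.36.

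The list mean was -0.20, -0.16 and -0.19 in KO-E, and from -0.11 to 0.25 in the other 9 arrays. KO-E was thus the group set apart, and WT replicate 1 (0.25) and KO replicate 1 (0.24) were both high at rest. All WT-E arrays exceeded all KO-E arrays for 7 of the 22 genes (12.4% of all genes), but KO replicates 1 and 2 exceeded all WT arrays for 1 (10.9%). KO replicate 3 exceeded all KO-E arrays for 8 of the 22, near the share of all genes (35.3%). The blocked count was 4 when WT replicate 3, KO replicate 1 or WT-E replicate 2 was left out. Without the block it was 6 lower and 1 higher (4.12% and 2.81% of all genes). The lower count there was 9 without WT replicate 1, and 4 without WT replicate 2 or 3, KO replicate 1, or WT-E replicate 1 or 3. It was 3 without KO replicate 2 or KO-E replicate 1, and 1 without KO-E replicate 3.

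Homer1 is best known for Homer1a, a short form made on neuronal activity that loosens the scaffold of glutamate receptors. One of its probes (chr13:94129858-94129917, plus strand, mm9) gave 7.17, 7.34 and 6.95 in WT, 7.46, 7.91 and 7.31 in KO, 7.88, 7.47 and 7.39 in WT-E, and 7.14, 6.65 and 6.36 in KO-E. All WT-E arrays were above all KO-E arrays. The interaction was -1.26 (SE 0.32) and -1.39 (SE 0.33), with limma adjusted p of 0.48 and 0.30, and it kept the criterion whichever array was left out. The other 3 Homer1 probes ranged from -0.52 to 0.05 with the block and none met the criterion, so the probes of the gene disagreed. Which transcript each probe reads was not examined here.

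Bpifa1, a secreted antimicrobial protein of airway and oral epithelium, had the largest interaction of the named genes. It gave 6.88, 7.19 and 7.01 in WT, 11.42, 10.20 and 7.90 in KO, 7.72, 7.85 and 8.01 in WT-E, and 8.49, 7.74 and 7.78 in KO-E. KO replicates 1 and 2 stood apart from the other 10 arrays, and KO replicate 3 lay among the exercised arrays of its slide. The interaction was -2.67 (SE 0.96) and -3.64 (SE 0.45), with limma adjusted p of 0.58 and 0.19. Within slides, KO replicates 1 and 2 minus WT was 3.78 (SE 0.34) and KO-E minus WT-E 0.14 (SE 0.30). Bpifb1, a gene of the same family named here after its values were seen, gave 8.91 and 9.08 in KO replicates 1 and 2 and 6.77 to 7.48 on the other arrays. Its interaction was -1.70 (SE 0.19) with the block but -1.06 (SE 0.60) without it, and a second probe gave -1.29 and -0.76.

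Dio2, the deiodinase of tanycytes that activates thyroid hormone, had one of the smallest p values with the block and was also named after its values were seen. It gave 9.95, 10.01 and 9.89 in WT, 10.46, 10.41 and 10.04 in KO, 10.24, 10.04 and 10.15 in WT-E, and 9.80, 9.75 and 9.55 in KO-E. Every KO array was above every WT array, and every KO-E array was below every other array. The interaction was -0.80 (SE 0.16) and -0.93 (SE 0.12), short of the size required.

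The other named genes with a lower change were Arl4d, a small GTPase (-1.18 and -1.50), 1810011O10Rik (-1.29 and -1.57), 8430408G22Rik (-1.36 and -1.50), Slc15a4, an endolysosomal histidine and peptide transporter (-1.16 and -1.22), Oxct2b, a testis form of a ketone body enzyme (-1.70 and -1.16), and Npm3, a histone chaperone (-1.48 and -1.14). All KO-E arrays lay below all WT-E arrays for Arl4d, 1810011O10Rik, Slc15a4 and Oxct2b. The other Slc15a4 probes had -0.28 and -0.01 with the block. Oxct2b and Npm3 had their highest KO value in replicate 3, at 6.76 and 6.12. Arl4d lost the criterion without the block when KO replicate 2 or KO-E replicate 1 was left out, and 1810011O10Rik in both fits without KO replicate 2. Npm3 kept it in 3 of 11 and 8430408G22Rik in 5 of 11 such cases with the block. Ppp1r3g, a glycogen-targeting subunit of protein phosphatase 1, met the criterion outside the 12, at -1.15 (SE 0.21) and -1.21 (SE 0.23).

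Higher changes in knockout were led in stability by En2. En2, a homeobox factor of the midbrain and hindbrain (probe at chr5:28498468-28498528, plus strand, mm9), gave 7.63, 7.86 and 8.22 in WT, 7.45, 7.05 and 7.30 in KO, 7.06, 7.40 and 7.46 in WT-E, and 7.91, 7.80 and 7.72 in KO-E. Every WT array exceeded every KO array, and every KO-E array exceeded every WT-E array. The interaction was 1.14 (SE 0.23) and 1.16 (SE 0.25), with limma adjusted p of 0.48 and 0.29. En2 lost the criterion without WT replicate 3 in both fits and without KO replicate 2 with the block.

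Adamts10, a metalloprotease of the extracellular matrix, gave 5.49, 5.69 and 5.09 in WT, 5.002, 5.40 and 4.97 in KO, 5.24, 5.47 and 5.30 in WT-E, and 6.89, 6.65 and 5.38 in KO-E. Its interaction of 1.27 (SE 0.47) and 1.19 (SE 0.52) was carried by KO-E replicates 1 and 2. Without either it missed the criterion in both fits, with the block it kept it in 2 of 11 cases, and the other 3 probes had 0.13 to 0.22 with the block. Bcl2a1c, a survival factor of the BCL2 family, gave 5.35, 6.16 and 6.27 in KO-E and 4.55 to 5.54 on the other arrays, with an interaction of 1.02 (SE 0.41) and 1.22 (SE 0.41). With 1 array left out it kept the criterion in 5 of 12 cases without the block and in 9 of 11 with it. Both differed from En2 in that KO and WT overlapped at rest.

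Efcab5, a calcium-binding protein, had the largest positive interaction of the named genes, at 1.51 (SE 0.47) and 1.39 (SE 0.51). WT replicates 2 and 3 were at 6.44 and 6.55, and the other 10 arrays lay between 4.54 and 5.24, so 2 resting wild-type arrays carried the value. The other 2 probes had -0.02 and 0.58 with the block, where the criterion was kept in 7 of 11 cases with 1 array left out. Ppp2r3a, a regulatory subunit of protein phosphatase 2A, had 1.19 (SE 0.38) and 1.12 (SE 0.42), and without WT replicate 2 it was 0.82 and 0.75, under the size required. Nppa, the atrial natriuretic peptide, had 1.02 (SE 0.45) and 1.12 (SE 0.49), kept the criterion in 13 of 35 alternatives, and had 0.22 and 0.23 with a brighter probe. The others were Gm36012 (1.03 and 1.25), Gm38585 (1.08 and 1.18), 9430091E24Rik (1.12 and 1.14), 5033421B08Rik (1.20 and 1.01) and 4930517G24Rik (1.08 and 1.17), of which no function is given here. Of these, 4930517G24Rik kept the criterion in 15 of 35 alternatives. With the block and 1 array left out, 5033421B08Rik and 9430091E24Rik each kept it in 4 of 11 cases and Gm38585 in 7, and without the block Gm36012 kept it in 6 of 12. With the normexp background correction all 12 named higher genes missed the criterion, as did 7 of the 12 lower ones, and all 24 kept their sign in each alternative.

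Per3, a period gene of the circadian clock, met the criterion with the dimmest of its 3 probes. That probe gave 5.52, 5.38 and 5.39 in WT, 4.81, 4.68 and 4.76 in KO, 5.42, 5.46 and 5.19 in WT-E, and 5.85, 5.77 and 5.52 in KO-E. KO was below the other 9 arrays with little spread, KO replicate 3 on the other slide included, and KO-E was above all WT-E arrays. The interaction was 1.03 (SE 0.14) and 1.04 (SE 0.15). The brighter probes gave 0.41 and 0.28, and 0.02 and -0.02, so the probes of the gene disagreed. Slc9a3, a sodium-proton exchanger, had 1.02 (SE 0.24) and 1.06 (SE 0.27).

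**Figure D3:**
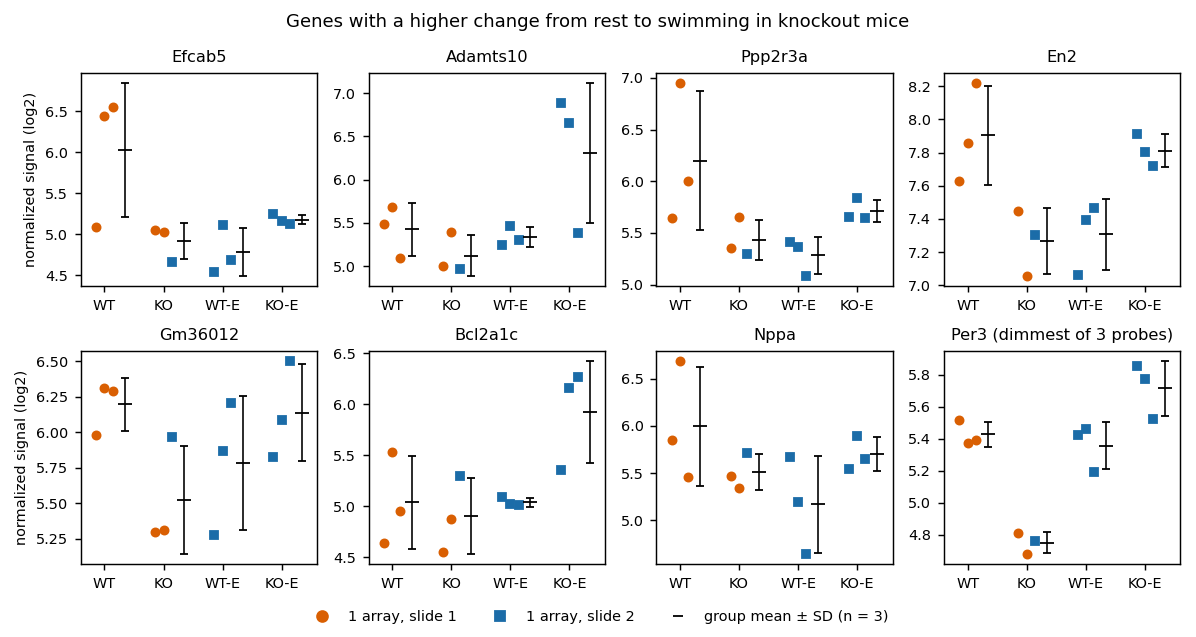
Normalized signal (log2) on each array for 7 of the 12 named genes with a higher change in knockout and for the dimmest Per3 probe, with slide 1 as circles, slide 2 as squares and the group mean ± SD (n = 3) as bars. En2 was lower in KO than WT and higher in KO-E than WT-E on every array, while Efcab5 and Adamts10 each stood out on 2 arrays of a single group.

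Interferon-stimulated genes, which build the antiviral state, had 7 lower and 0 higher of 23 with the block (6.73% and 3.99% of all genes), with a median of -0.28. Ifi27 gave 13.44, 13.31 and 13.27 in WT, 13.61, 13.48 and 13.36 in KO, 13.50, 13.47 and 13.31 in WT-E, and 13.27, 13.18 and 13.14 in KO-E, all KO-E arrays being below all WT-E arrays. Its interaction was -0.37 (SE 0.11) and -0.44 (SE 0.11). Ifih1, a sensor of viral RNA, had -0.41 and -0.43, Ifit2, which blocks translation of viral RNA, -0.18 and -0.28, and Stat2, which carries the interferon signal to the nucleus, -0.13 and -0.21. No member met the criterion. KO replicate 3 lay above all KO-E arrays for 8 of the 23 genes, near the share of all genes (35.3%). The list mean was 0.09 in KO-E replicate 1 and -0.22 and -0.21 in KO-E replicates 2 and 3. The count was 12 of 23 without KO-E replicate 1, 3 without KO replicate 2, and 4 without WT-E replicate 1, KO-E replicate 2 or KO-E replicate 3. Without the block it was 4, against 4.12% of all genes. It was 13 there without KO-E replicate 1, and 2 without KO replicate 2, KO-E replicate 2 or KO-E replicate 3.

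The interferon-stimulated response element TTTCNNTTTC was in 9 of 17 list members with a promoter (52.9%), on either strand of the 250 bases, against 3.46% of all genes. Stat2, the holder with the smallest p, is shown at chr10:128270248-128270497, plus strand, GRCm38.p6, with the match at -222 to -213 in capitals. In the immediate-early list the cAMP response element TGACGTCA was in 2 of 17 (11.8%), Dusp1 and Btg2, against 1.77%. These matches describe the letters of the windows only.
Stat2: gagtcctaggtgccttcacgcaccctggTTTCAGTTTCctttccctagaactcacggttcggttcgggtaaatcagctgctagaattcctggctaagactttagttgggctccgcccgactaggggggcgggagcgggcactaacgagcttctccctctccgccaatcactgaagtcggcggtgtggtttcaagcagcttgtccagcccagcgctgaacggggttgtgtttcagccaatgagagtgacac

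The p53 targets had 8 lower and 1 higher of 27 with the block (6.73% and 3.99% of all genes) and a median of -0.12. Without the block 4 were lower and 0 higher (4.12% and 2.81% of all genes). Besides Cdkn1a, the members with the smallest p were Chek1, Trp53inp1, which drives autophagy and cell death (-0.31 and -0.35), and Ccng2, a cyclin of resting cells (-0.21 and -0.29). Chek1, the checkpoint kinase, which the study chose on these samples, gave 4.15, 3.59 and 3.84 in WT, 4.99, 5.27 and 4.59 in KO, 4.58, 4.27 and 4.70 in WT-E, and 4.47, 3.83 and 4.37 in KO-E. Every KO array was above every WT array. The interaction was -1.38 (SE 0.32) and -1.56 (SE 0.30), but the probe was well above background on 1 of 3 WT and 2 of 3 KO-E arrays. Without KO replicate 2 the list count was 2 of 27. KO replicate 3 lay above all KO-E arrays for 14 of the 27 genes (35.3% of all genes).

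Unfolded protein response genes, which relieve the endoplasmic reticulum, had 6 lower and 1 higher of 23 with the block (6.73% and 3.99% of all genes) and a median of -0.10. Without the block 5 were lower and 0 higher (4.12% and 2.81% of all genes). There 0 were lower when KO replicate 2 or WT-E replicate 1 was also left out. Herpud1, part of the machinery that removes misfolded proteins, had -0.23 and -0.28, and Creld2, Manf and Xbp1 had -0.34 and -0.36, -0.23 and -0.26, and -0.29 and -0.31. KO replicate 3 lay above all KO-E arrays for 12 of the 23 genes (35.3% of all genes). With the block the lower count was 1 without WT replicate 1 or KO-E replicate 3, 2 without KO replicate 2, 3 without WT-E replicate 1 or KO-E replicate 2, and 4 without WT replicate 3, WT-E replicate 2 or WT-E replicate 3.

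Among the pathways that the study names, long-term depression, a form of synaptic weakening, had 0 lower and 1 higher of 54 genes with the block. Over all genes the shares were 6.73% and 3.99%. The list median was 0.02, and the higher gene was Itpr3, at 0.27 with the block and -0.00 without it. Oestrogen signalling had 7 lower and 1 higher of 52 with the block (6.73% and 3.99% of all genes), with a median of -0.07. Its members with the smallest p were Hspa1b, Kcnj5, a potassium channel subunit (-0.27 and -0.35), Sos2, which activates Ras (-0.21 and -0.23), and Krt19, a keratin (-0.88 and -1.22). Without WT replicate 1 the lower count was 11 of 52. Without the block it was 6, against 4.12% of all genes, or 2 without KO-E replicate 3 and 3 without KO replicate 2 or WT-E replicate 1. Actin remodelling by Eps8 and Rac had 1 of 27 in each direction with the block (6.73% and 3.99% of all genes), Sos2 and Eps8l1.

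The genes that the study singled out were chosen on these samples, and their values are a description. Except for Mpp1, the study also measured them by qRT-PCR. It reports Eps8l1 and Plcb2 as verified, both lower after knockout, and the others as not verified. Eps8l1, a relative of the actin-capping protein Eps8, had an interaction of 2.40 (SE 0.43) and 2.50 (SE 0.47). It gave 5.40, 6.41 and 5.93 in WT, 3.72, 4.08 and 4.19 in KO, 5.59, 5.10 and 5.82 in WT-E, and 5.95, 5.53 and 6.48 in KO-E. KO was below the other 9 arrays, and the probe was well above background there on 1 of 3 arrays. For Plcb2, a phospholipase C, the brightest probe had -0.35 without and -0.01 with the block, and a second probe had 0.11 without it. A further Plcb2 probe was well above background in WT only, at 4.05, 5.96 and 5.62, and no interaction is given for it. The brightest probes of Itpr2, Mdm4, Mpp1, Pidd1 and Sytl2 had interactions between -0.12 and 0.30 without the block, and none met the criterion. A further Mpp1 probe was not well above background on any WT array, and a further Sytl2 probe on any KO array. That Sytl2 probe and the Plcb2 probe seen in WT only met the criterion in both fits, but with whole groups undetected. The probes of Sytl2 and Plcb2 thus disagreed. The dimmest Itpr2 probe had -0.56 (SE 0.35) without and -0.89 (SE 0.22) with the block, short of the size required.

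The feeding circuit had 4 lower and 1 higher of 21 with the block (6.73% and 3.99% of all genes). Lepr, the leptin receptor, gave 8.56 to 8.75 in WT, 8.63 to 8.79 in KO, 8.52 to 8.70 in WT-E and 8.92 to 9.07 in KO-E. KO-E was above the other 9 arrays, and the interaction was 0.35 (SE 0.11) and 0.38 (SE 0.11). The other 3 Lepr probes were dimmer and had the opposite sign, at -0.71 to -0.50 without the block. Mchr1, a receptor of melanin-concentrating hormone, had -0.69 (SE 0.20) and -0.66 (SE 0.22), Npy5r, a neuropeptide Y receptor, -0.20 and -0.26, and Hcrtr2, an orexin receptor, -0.37 and -0.38. The lower count was 1 without KO replicate 2, 2 without WT-E replicate 1 or KO-E replicate 3, and 6 without WT-E replicate 3.

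Of 28 hypothalamic neuropeptides 0 differed in either direction at an unadjusted p under 0.05 in limma (10.7% of all genes with the block), with a median of -0.04. The smallest p values belonged to Sst, somatostatin (0.19 and 0.30), Npy (-0.23 and -0.36), Agrp, which drives feeding (-0.29 and -0.45), and Cck (-0.15 and -0.33).

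Serotonin, melatonin and monoamine genes had 3 lower and 1 higher of 20 with the block (6.73% and 3.99% of all genes). Htr4, a serotonin receptor, gave 8.34, 8.19 and 8.27 in WT, 8.47, 8.54 and 8.40 in KO, 8.45, 8.34 and 8.52 in WT-E, and 8.18, 8.08 and 8.10 in KO-E. All KO arrays were above all WT arrays and all KO-E arrays below all others, and the interaction was -0.52 (SE 0.10) and -0.56 (SE 0.09). Htr2a and Htr1b, also serotonin receptors, had -0.31 and -0.33, and -0.34 and -0.32. Dbh, which makes noradrenaline, met the criterion at 1.72 (SE 0.57) and 1.62 (SE 0.63), with KO-E at 5.03, 6.90 and 5.09 and the other arrays at 4.04 to 4.80. KO-E replicate 2 was the highest array, and the probe was well above background on 2 of 3 WT and 1 of 3 KO arrays.

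The circadian clock had 2 lower and 1 higher of 22 with the block, near the shares of all genes (6.73% and 3.99%), and a median of -0.01. The lower count was 4 without WT replicate 1, and 1 without WT replicate 2, KO replicate 1 or 2, WT-E replicate 1 or KO-E replicate 1. Without the block 1 was lower and 1 higher (4.12% and 2.81% of all genes). Per2 had -0.21 and -0.31, Hlf, a clock output factor, -0.22 and -0.20, Bhlhe41, a repressor, 0.28 and 0.23, and Nr1d1, REV-ERB alpha, 0.20 and 0.20. Potassium channels had 3 lower and 1 higher of 37 with the block, near the shares of all genes (6.73% and 3.99%). Among them were Kcnn2, a calcium-activated channel, at -0.37 and -0.47, and Kcnq5 at 0.21 and 0.65. Insulin signalling had 4 lower and 2 higher of 29 with the block (6.73% and 3.99% of all genes). Without it 0 were lower and 1 higher (4.12% and 2.81% of all genes). With the block the lower count was 1 without KO replicate 2, and 2 without WT replicate 2 or KO-E replicate 1 or 2, and 4 were higher without WT replicate 3. Irs2, an adaptor of the insulin receptor, had -0.35 and -0.50, and Slc2a4, the insulin-regulated glucose transporter GLUT4, had 0.61 (SE 0.21) and 0.66 (SE 0.22).

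The remaining gene groups are given with the block, where 6.73% of all genes were lower and 3.99% higher. Respiratory chain and ATP synthase genes had 3 lower and 0 higher of 44, cytosolic ribosomal proteins 2 and 0 of 47, and antioxidant defence 2 and 0 of 25, where Nfe2l2, the master regulator NRF2, had -0.41 (SE 0.11) and -0.46 (SE 0.10). Glutamate receptors and transporters had 1 lower and 3 higher of 32, led by Grik1, a kainate receptor subunit (0.20 and 0.46), but 0 in either direction at an unadjusted p under 0.05 in limma without the block. GABA and glycine transmission had 0 and 1 of 27, neurotrophin signalling 1 and 1 of 18, and angiogenesis 1 and 0 of 18, the gene there being Adm, adrenomedullin (-0.51 and -0.77). Without the block, where 4.12% of all genes were lower, the lower counts were 1 of 44 for the respiratory chain and 0 of 47 for ribosomal proteins. They were 1 of 25 for antioxidant defence and 0 of 18 for angiogenesis. With the block 8 ribosomal genes were lower without WT replicate 1.

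**Figure D4:**
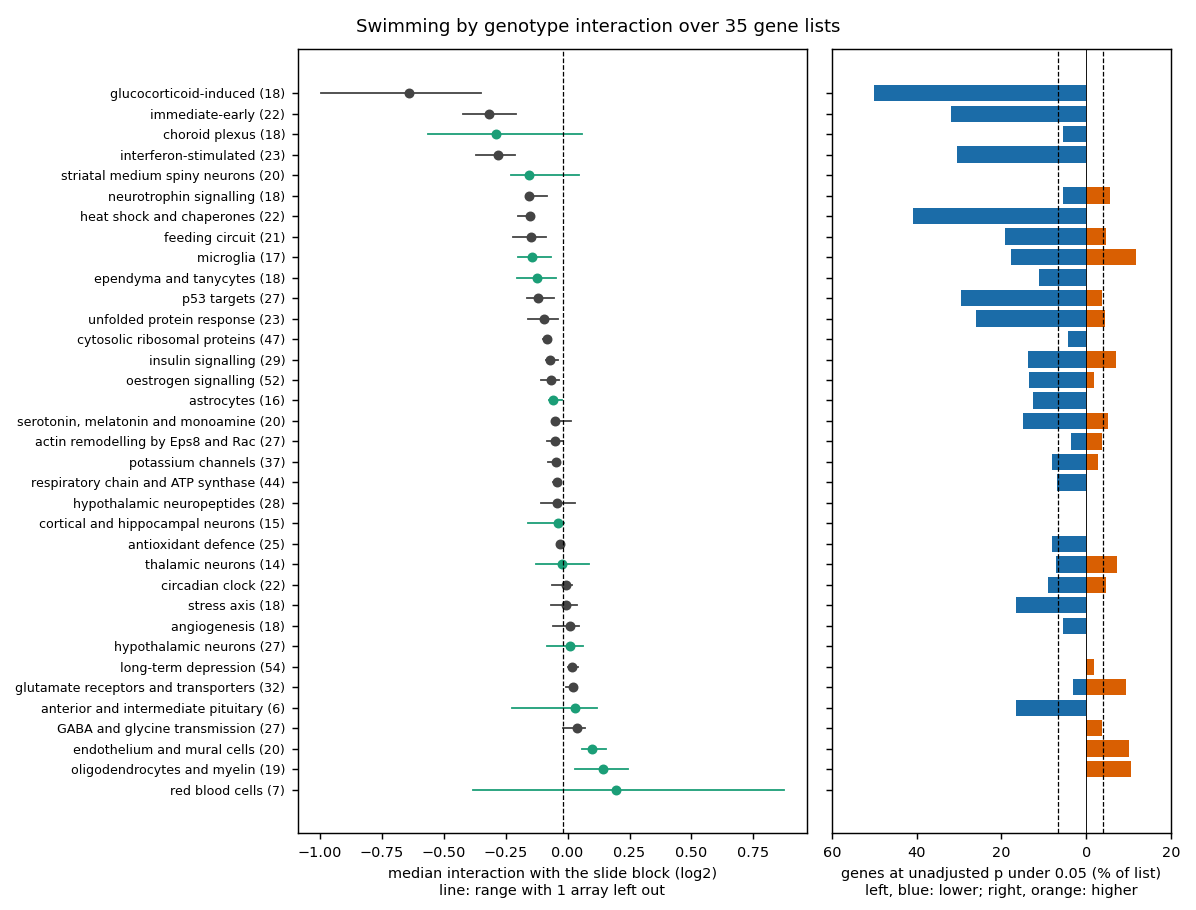
Median slide-blocked interaction (log2, left) of 35 gene lists with the number of genes tested in brackets, the line being the range with 1 array left out, and the share of each list at an unadjusted p under 0.05 (right, blue lower, orange higher). Gene groups are in dark grey, cell type markers in green, and dashed lines mark all 18266 genes at -0.02, 6.73% and 3.99%; the glucocorticoid-induced, heat shock, immediate-early, interferon, p53 and unfolded protein response lists have the largest shares of lower genes.

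Markers of cell types were examined beside these groups, since in a piece of tissue fewer cells of a type and less RNA per cell cannot be told apart. Their counts are given with the block, where 6.73% of all genes were lower and 3.99% higher. Hypothalamic neuron markers had 0 of 27 in either direction, so the labelled tissue showed no interaction in its own markers at an unadjusted p under 0.05 in limma. Their list mean was lowest in WT-E replicate 3 at -0.20 and WT replicate 3 at -0.15, and from -0.07 to 0.14 on the other arrays. The part of this spread in the interactions was not tested. Pmch, the melanin-concentrating hormone of the lateral hypothalamus, was bright on all arrays, at 14.42 to 15.29. Choroid plexus, the epithelium that makes cerebrospinal fluid, had 1 lower and 0 higher of 18, with a median of -0.29 that became 0.06 without KO replicate 2, and 7 of 18 with a median of -0.57 without KO replicate 1. Its list mean was 0.45 in KO replicate 2 and -0.32 and -0.20 in KO replicates 1 and 3. Thus KO replicate 2 was high in both the choroid plexus and the glucocorticoid lists, and the part of the former in the latter was not tested.

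Striatal markers had 0 of 20 and cortical and hippocampal markers 0 of 15, but WT-E replicate 3 stood at 0.64 and 0.32 for their list means, with the other 11 arrays at -0.18 to 0.23 and -0.12 to 0.14. Thalamic markers had 1 lower and 1 higher of 14, with WT-E replicate 3 at 0.31. For these and the next marker counts the shares over all genes were 6.73% lower and 3.99% higher with the block. Ependyma and tanycytes had 2 and 0 of 18, one of them Dio2 and the other Lhx2, a tanycyte factor (-0.40 and -0.48). Astrocytes had 2 and 0 of 16, and pituitary 1 and 0 of 6. Microglia had 3 and 2 of 17, or 6 and 3 without KO replicate 1. Without the block they had 1 and 0 (4.12% and 2.81% of all genes). Lag3 was at -0.55 (SE 0.13) and -0.62 (SE 0.13). Itgam and Siglech, of the same list, went the other way after swimming, with all KO-E arrays above all WT-E arrays. Oligodendrocytes had 0 lower and 2 higher of 19 with a median of 0.14, Mag, a myelin adhesion protein, being at 0.44 and 0.52, and the list mean was highest in KO-E replicate 3 at 0.28. Endothelium and mural cells had 0 and 2 of 20, led by Slco1a4, a transporter of the blood-brain barrier, at 0.47 (SE 0.12) and 0.45 (SE 0.13). Red blood cell markers had 0 of 7 in either direction with a median of 0.20 with the block. Without KO replicate 2, 6 of 7 were higher with a median of 0.87, and without KO replicate 1, 2 of 7 were lower with a median of -0.38. Their list means were -0.62 in KO replicate 1 and 0.54 in KO replicate 2. The part of these shifts in the interactions was not tested.

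**Figure D5:**
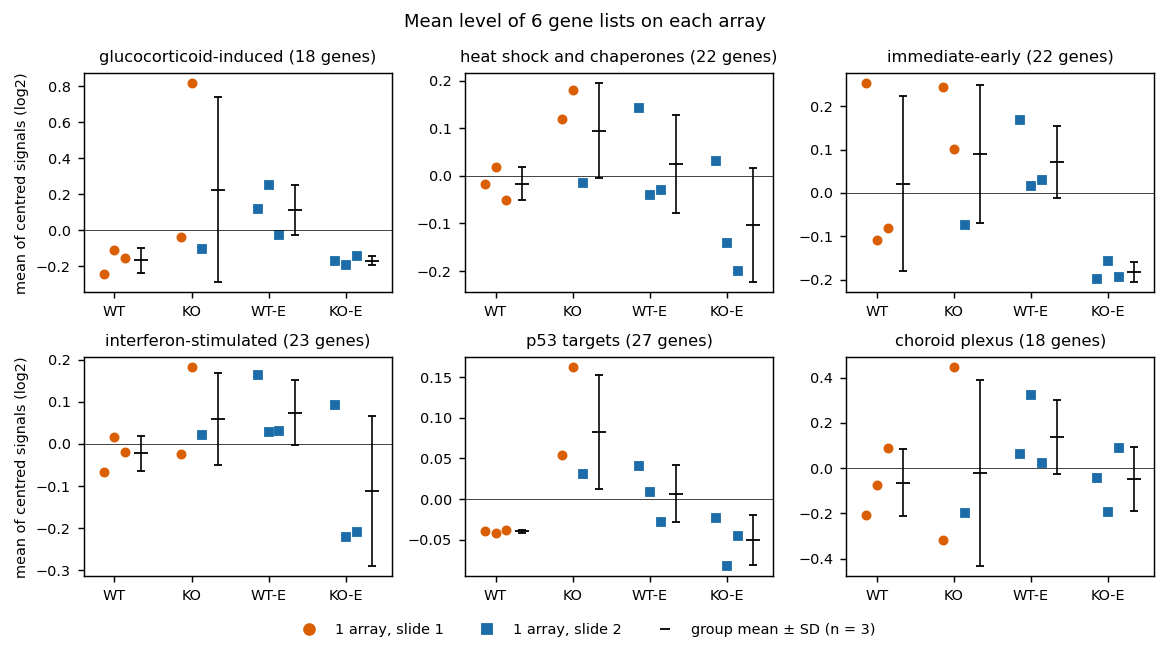
Mean of the centred log2 signals of 6 gene lists on each array, with slide 1 as circles, slide 2 as squares and the group mean ± SD (n = 3) as bars. All 3 KO-E arrays lie below 0 for the glucocorticoid-induced, immediate-early and p53 lists. KO replicate 2 is the highest array for the glucocorticoid-induced, heat shock, interferon, p53 and choroid plexus lists.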

How the data were processed

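RNA from the hypothalamus of 12 mice was hybridised to 1-colour Agilent mouse arrays, 3 per group. The deposited scanner files held spot intensity, extracted by the authors with Feature Extraction 10.7.1.1 on an mm9 grid. The authors' deposited table of normalized values held log2 signals after quantile normalization, which were used here. Their 4 comparison tables hold fold changes, p-values and 24 per-sample columns, and were not used. Groups came from the sample labels.

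Probes well above background on every array of at least 1 group were fitted in limma 3.58.1 (R 4.3.3), with 1 mean per group and, in the other fit, the slide as a fixed block, and p-values were adjusted by Benjamini-Hochberg over all 35230 probes. Figures were drawn with matplotlib 3.10.9. Genes in lists were taken by their brightest probe. Named genes were up to 12 in each direction with the largest mean absolute interaction over both fits, among probes at the criterion in both and well above background on all 12 arrays, 1 per gene. Added were the genes the study singled out and up to 4 members of each list with the smallest p in the blocked fit. One of the named genes with a higher change is counted but not reported here. The members and lists were chosen with earlier results of these data known. Scripts were tested on simulated data. With 3 arrays per group, p-values measure only the spread between these samples, and the number of arrays limits the precision. Alternatives covered normalization, background correction, detection filter, array weights, probe averaging, blocks and leaving out each array. Promoters were RefSeq sequences of GRCm38.p6, and 18 of 24 named genes matched.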

Additional observations from a re-analysis of the deposited data

How the results depend on the processing

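Without the slide block, the criterion was met by 209 probes (85 higher, 124 lower). With each array scaled to its 75th percentile 143 were higher and 77 lower. With normexp 12 met it (2 higher, 10 lower), 10 of them also with the slide block. Without a detection filter there were 955 (456 higher, 499 lower), 648 in both fits, and 4 had an adjusted p under 0.05. With probes well above background on all 12 arrays there were 47 (24 higher, 23 lower), 34 in both fits. With array weights there were 342 (140 higher, 202 lower), 285 in both fits and 4601 at an unadjusted p under 0.05. With probes averaged per gene there were 94 (32 higher, 62 lower), 66 in both fits and 1472 at an unadjusted p under 0.05. The cause of these shifts was not tested, except that fewer or more probes were tested under the filters and the averaging.

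With 1 array left out and no block, the count ranged from 195 to 316 (73 to 115 higher, 110 to 227 lower), from 117 to 207 in both fits and from 1903 to 3803 at an unadjusted p under 0.05, with 0 at an adjusted p under 0.05 in limma. With the slide block and 1 array left out, a combination chosen after seeing the data, it ranged from 250 to 437 (98 to 162 higher, 141 to 295 lower) and from 2552 to 4298 at an unadjusted p under 0.05, with 0 to 14 at an adjusted p under 0.05. The largest count in each fit, 316 and 437 (142 higher), came without KO replicate 1. With the slide block the count was 357 without WT replicate 1, and 136 and 131 were higher without KO replicate 2 and KO-E replicate 3. The Detected flag of the authors in place of the scanner's, and the list counts with 1 array left out, were also chosen after seeing the data. The brightest Plcb2 probe, at -0.35, changed sign with the slide block in 6 cases, to 0.084 without WT replicate 1, 0.014 without KO replicate 2 or WT-E replicate 1, 0.064 without WT-E replicate 2, 0.0096 without KO-E replicate 1 and 0.025 without KO-E replicate 2.

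The replicate numbers did not pair the samples: same-numbered arrays deviated with correlations of -0.19 to 0.24 and 5 of 12 arrays correlated best with their own number. With the replicate block 211 probes met the criterion, and with the replicate block and the slide block 4294 had an unadjusted p under 0.05. Of 840 values of the 24 named probes under the 35 alternatives, 670 stayed at the criterion and 170 did not, and all kept their sign. The slide-block fit is among the 35 and had chosen these probes. Leaving out KO replicate 3 without the block gives the same fit. Those outcomes were thus fixed by the choice of the probes. Signal over background limits the dim probes, 70 of the 148 being undetected on every array of at least 1 group, against 573 of all 35230 tested.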
